A study of Mus musculus with 5 samples.

Results

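MicroRNA genes were taken from 3 lists of RNA-binding peaks as the genes whose listed symbol is Mir or Mirlet followed by a number, with an optional letter and copy number, and 179 of the 7318 genes named in the lists fit that rule. The lists come from eCLIP, which sequences the RNase I fragments that a chosen protein holds after crosslinking and immunoprecipitation, beside an input library of unprecipitated lysate. The labels give GC-2spd(ts), a mouse cell line that they call spermatocyte cells, for all samples. No genotype change, drug or time course is given for any of them. PABPC1, the cytoplasmic poly(A)-binding protein, had 1 immunoprecipitated sample and 1 input, and CCT3, which belongs to the TRiC/CCT chaperonin, had 2 immunoprecipitated samples (titled CCT3 and CCT3-2) and 1 input. CCT3 and CCT3-2 carry the same library name in the labels, so they are not shown to be independent, and nothing that sets 1 protein against the other was replicated. The log2 fold over input and the −log10 p given for peaks are values of the authors. Library read totals were not used, which leaves the depth of every peak unknown.

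MicroRNAs are cut from the stem of a hairpin transcript, first in the nucleus by Drosha and its partner Dgcr8 and then in the cytoplasm by Dicer. One strand of the resulting duplex, named 5p or 3p after the arm of the hairpin it comes from, is loaded into an Argonaute protein and pairs with messenger RNAs mainly through its seed, the stretch from base 2 to base 8. Argonaute recruits the Tnrc6 proteins, which bind the poly(A)-binding protein and deadenylases on the target messenger RNA. In testis, the miR-34 and miR-449 family and a group of X-linked microRNAs are known for their high levels in germ cells.

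PABPC1 peaks on 28 of 35 microRNA genes lay on a mature RNA of the reference table, and sequences of these mature RNAs are shown first because the seeds define the families. All sequences are from RefSeq (GRCm38.p6, the mm10 build of the peaks), 5′ to 3′, with the seed in capitals. Of the 28 mature RNAs under a PABPC1 footprint, 11 fell into 5 groups with a common seed. The seed GGCAGUG was shared by miR-34a-5p, miR-34b-5p and miR-449a-5p, AGCAGCA by miR-15a-5p and miR-195a-5p, GAGGUAG by 2 let-7 RNAs, GUAAACA by 2 miR-30 RNAs and UCACAGU by both miR-27 RNAs.
miR-34a-5p: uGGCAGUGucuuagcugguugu
miR-34b-5p: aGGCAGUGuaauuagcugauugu
miR-449a-5p: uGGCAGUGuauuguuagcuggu
miR-15a-5p: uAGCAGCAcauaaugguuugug
miR-195a-5p: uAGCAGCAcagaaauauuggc
let-7b-5p: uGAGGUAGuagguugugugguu
let-7g-5p: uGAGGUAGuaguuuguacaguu
miR-30a-5p: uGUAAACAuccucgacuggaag
miR-30e-5p: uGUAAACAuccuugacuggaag
miR-27a-3p: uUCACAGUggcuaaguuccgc
miR-27b-3p: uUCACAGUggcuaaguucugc

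The 7 mature RNAs covered on the X chromosome, all on the minus strand, had 7 different seeds, although 6 of the genes lie in 1 cluster. They are shown for that contrast with the families above.
miR-742-3p: gAAAGCCAccaugcuggguaaa
miR-883a-3p: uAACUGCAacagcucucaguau
miR-471-5p: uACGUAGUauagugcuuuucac
miR-741-3p: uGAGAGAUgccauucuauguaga
miR-871-3p: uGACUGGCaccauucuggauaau
miR-470-5p: uUCUUGGAcuggcacuggugagu
miR-201-5p: uACUCAGUaaggcauuguucuu

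Mir423, which lies within the span of the splicing regulator gene Nsrp1, had the highest fold of any microRNA gene in the PABPC1 list and is the 1 gene with a peak on it in all 3 lists. The first line below is its mature 5p RNA with the seed in capitals, and the second is the stretch covered by PABPC1 peaks at chr11:77078122-77078151 on the minus strand, where capitals mark the bases of the mature RNA. The let-7g stretch at chr9:106178841-106178868 on the plus strand is shown in the same way, as the other footprint that reached more than 2 bases upstream of the mature RNA.
miR-423-5p: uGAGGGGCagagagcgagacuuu
Mir423 footprint: guuaggcUGAGGGGCAGAGAGCGAGACUUU
Mirlet7g footprint: caggcUGAGGUAGUAGUUUGUACAGUUu

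The named microRNA genes were mostly PABPC1 genes, as were the listed genes in general. A PABPC1 peak was listed for 139 of the 179 (77.7%, Wilson 95% interval 71.0 to 83.1%), against 72.3% of all 7318 genes. For CCT3 the count was 43 (24.0%, 18.4 to 30.8%) against 30.2% of all genes, and for CCT3-2 it was 57 (31.8%, 25.5 to 39.0%) against 39.0%. PABPC1 and CCT3 were both listed for 13 microRNA genes (7.26%, 4.29 to 12.03%) against 9.72% of all genes. These shares lie near their backgrounds, and intervals here and below cover counting error only, with peaks of 1 gene not independent of each other. Under these names stood 329 of 14092 PABPC1 peaks, 269 of 10916 CCT3 peaks and 418 of 18650 CCT3-2 peaks.

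Most of those peaks did not touch the microRNA gene. The peak overlapped the listed span of the microRNA by at least 1 base in 50 of 329 PABPC1 cases (15.2%, 11.7 to 19.5%), where 32.1% of all PABPC1 peaks overlapped the span of their listed gene. The count was 6 of 269 for CCT3 (2.23%, 1.03 to 4.78%) against 49.5% of all its peaks, and 18 of 418 for CCT3-2 (4.31%, 2.74 to 6.70%) against 49.6%. Most listed microRNA spans are only as long as a hairpin, and the shares over all peaks were not matched for span length. The lower shares are therefore not shown to be a trait of microRNA genes. The overlapping peaks lay on 35 microRNA genes in PABPC1, 5 in CCT3 and 11 in CCT3-2. The other names rest on peaks beside the microRNA, for 104 genes in PABPC1, 38 in CCT3 and 46 in CCT3-2, and those are described last. The 35 genes are 2.97% of the 1180 microRNA genes in RefSeq. Taken by position whatever the listed name, PABPC1 peaks lay on 37, which adds Mir126a and Mir30f.

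The PABPC1 peaks on microRNA genes had higher folds but lower −log10 p values than those beside them. Their median log2 fold was 5.44, against 4.15 for the 279 peaks beside a microRNA and 4.19 for all PABPC1 peaks. The median −log10 p was 7.10 on the gene, 10.6 beside it and 10.4 over all PABPC1 peaks. A log2 fold of at least 5 was listed for 32 of the 50 (64.0%, 50.1 to 75.9%), for 71 of 279 beside (25.4%, 20.7 to 30.9%) and for 24.5% of all PABPC1 peaks. The strand of the peak was that of the microRNA for 47 of 50 (94.0%, 83.8 to 97.9%), and for 206 of the 279 beside (73.8%, 68.4 to 78.6%). In the CCT3 lists the medians were 4.14 on and 3.85 beside the microRNA for CCT3 (4.05 over all its peaks) and 4.06 and 3.71 for CCT3-2 (3.83 over all).

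Pieces of peak on 1 strand that touch or leave at most 1 base between them were joined and are called footprints. The 50 PABPC1 peaks formed 35 footprints, 1 on each of the 35 genes, and 14 of them had more than 1 piece. Taking the highest log2 fold of each footprint, the median was 5.19, against 5.44 over the 50 peaks. The width of the 35 footprints ran from 15 to 58 bases with a median of 23. For the 12072 footprints of the whole PABPC1 list the median was 55. Between 19 and 26 bases wide were 30 of the 35 (85.7%, 70.6 to 93.7%) and 4.83% of all PABPC1 footprints. The width range was chosen after the widths were seen. In CCT3 the 6 footprints on microRNA genes were 25 to 73 bases wide with a median of 56, near the 59 of the whole list, and 1 of 6 lay in that range. In CCT3-2 the 11 were 22 to 141 bases wide with a median of 73, and 4 lay in it, on Mir23a, Mir27a, Mir29a and Mir5099.

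**Figure D1:**
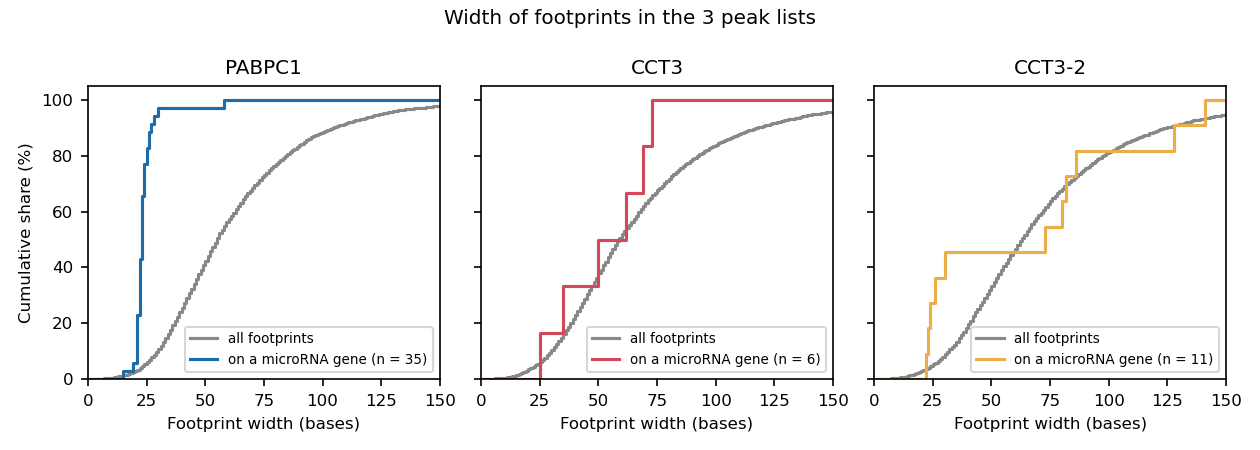
Cumulative share in percent of footprints up to a given width in bases, for all footprints of a list (grey) and for those on a microRNA gene (colour), in the PABPC1, CCT3 and CCT3-2 lists. The PABPC1 curve for microRNA genes rises steeply around its median of 23 bases, left of the curve for all PABPC1 footprints with its median of 55. The 6 CCT3 footprints have a median of 56, near the 59 of their list, but reach 100% at 73 bases, where the list is at 65.9%. At 30 bases the CCT3-2 curve for microRNA genes is at 45.5%, against 8.85% for all its footprints.

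The edges of the PABPC1 footprints followed those of the mature RNAs. A mature RNA of the RefSeq table lay under 28 of the 35 footprints. Their 5′ edge was at the first base of the mature RNA in 16 cases and within 1 base of it in 24. The 3′ edge was at the last base in 10 cases, within 1 base in 21 and within 3 bases in 27, and where it differed it ran beyond the end in 13 cases and stopped short in 5. Both edges were exact for 6 mature RNAs, miR-195a-5p, miR-125a-5p, miR-202-5p, miR-23a-3p, miR-470-5p and miR-201-5p. The whole mature RNA was covered in 21 cases.

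A single arm of each hairpin was covered. The covered RNA was the 5p arm in 17 cases and the 3p arm in 11. The table gives both arms for 27 of these 28 genes, and 0 of 28 had a PABPC1 footprint on both. The 5p arm was covered for both let-7 RNAs, both miR-30 RNAs and all members of the GGCAGUG seed group, and the 3p arm for both miR-27 RNAs, which are the arms usually taken as the guide strands of these families.

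The 5′ edge lay elsewhere in few genes. It was 7 bases upstream of miR-423-5p, 5 bases upstream of let-7g-5p and 2 bases upstream of miR-101a-3p. It lay inside the mature RNA for 4 genes, all on the X chromosome, by 1 base for miR-741-3p, miR-742-3p and miR-883a-3p and by 4 bases for miR-871-3p, whose footprint of 15 bases was the narrowest. The plot of footprint edges against the mature RNAs shows these exceptions at its top and bottom.

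**Figure D2:**
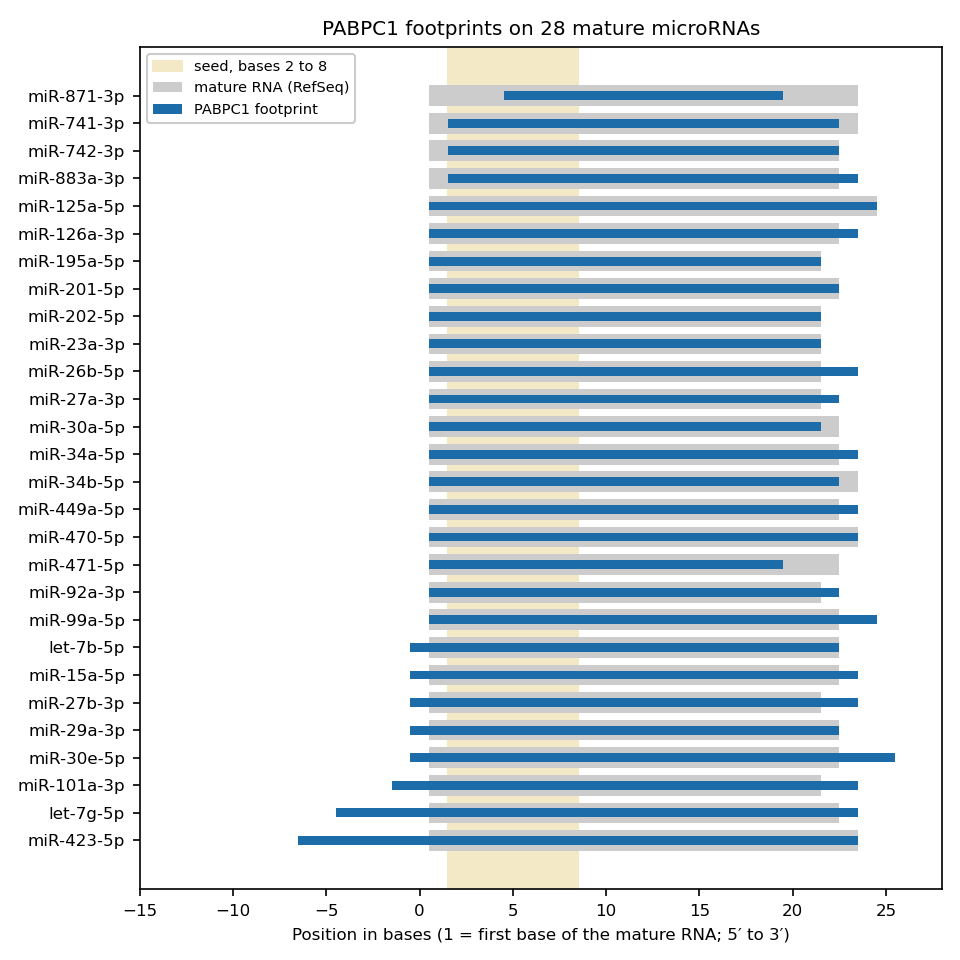
Extent of the PABPC1 footprint (blue) on each of 28 mature RNAs (grey), with position in bases from the first base of the mature RNA on the horizontal axis and the seed, bases 2 to 8, shaded. Of the 28 footprints, 24 start within 1 base of the mature RNA, and miR-423-5p has the one reaching 7 bases upstream.

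For the other 7 footprints no mature RNA of the table was on the same strand at that place. Those of Mir23b and Mir34c were read from their hairpins and hold the seeds of their families, which are shown in capitals. The Mir23b footprint, chr13:63300528-63300553 on the plus strand, holds the miR-23a-3p seed from its base 3, and the Mir34c footprint, chr9:51103076-51103098 on the minus strand, holds the seed of miR-34a-5p, miR-34b-5p and miR-449a-5p from its base 2.
Mir23b footprint: aaUCACAUUgccagggauuaccacgc
Mir34c footprint: aGGCAGUGuaguuagcugauugc
miR-23a-3p: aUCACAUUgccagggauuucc

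The footprint on Mir130c stood apart from the rest, being 58 bases wide and on the strand opposite to the microRNA, at a log2 fold of 4.60. Mir30b, Mir30d, Mir143 and Mir145a had footprints of 22, 27, 22 and 25 bases. The peak listed under Mir126b also lay on the strand opposite to that gene. It covered miR-126a-3p of the overlapping gene Mir126a from its first base, at chr2:26591402-26591424 on the plus strand. Mir126a lies in Egfl7, a gene of endothelial cells, and miR-126 is known as an endothelial microRNA.

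The PABPC1 folds of the 35 genes ran from 4.07 to 11.43. Mir423 reached a log2 fold of 11.43 with a −log10 p of 400, the ceiling of the deposited values, and by its highest fold ranked 2 among the 5289 genes of the PABPC1 list. No other microRNA gene with a peak on it exceeded 7.36. The next were Mir143 at 7.36 (−log10 p 25.4), Mir27a at 7.20 (23.5), Mir34c at 6.97 (16.8) and the peak named Mir126b at 6.53 (13.7). Mir143 and its neighbour Mir145a, at 4.67, lie in the long noncoding RNA Carmn and are known from smooth muscle and other mesenchymal cells. All 50 peaks were annotated in the promoter class of the deposited annotation.

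Members of 1 family differed in fold. In the miR-34 and miR-449 family, known in testis and in ciliated epithelia, Mir34c stood at 6.97, Mir34a, a target of p53, at 5.76, Mir34b at 4.86 and Mir449a, within Cdc20b, at 4.78. In the miR-30 family the order was Mir30d at 5.76, Mir30a at 5.62, Mir30b at 4.51 and Mir30e, in the transcription factor gene Nfyc, at 4.19. The let-7 genes, whose RNAs time development and restrain growth genes, were close to each other, with Mirlet7b just under 5 and Mirlet7g, in Wdr82, at 4.74. Each value is 1 measurement without a replicate, so the orders within families cannot be set against an error.

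The paired clusters of miR-23 and miR-27 differed in which member was higher. In the first cluster Mir27a stood at 7.20 and Mir23a at 4.90, and in the second, in Aopep, Mir23b stood at 6.22 and Mir27b at 5.72. Mir29a, whose family is known to restrain collagen genes, had a log2 fold of 6.25 (−log10 p 13.4). The cell cycle regulators Mir15a, in the long noncoding RNA Dleu2, and Mir195a stood at 5.13 and 4.86, and Mir92-1, of the growth-promoting cluster in Mir17hg, at 5.69. Mir125a, in Spaca6, was at 5.66, Mir99a at 4.86, Mir26b, in the phosphatase gene Ctdsp1, at 4.60 and Mir101a at 5.36.

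The gonadal microRNA gene Mir202 stood at 5.61 with a −log10 p of 15.2. For the X-linked genes, known for expression in testis, the log2 folds were Mir471 at 5.53, Mir470 at 5.27, Mir201 at 5.19, Mir871 at 5.17, Mir741 at 5.12, Mir742 at 5.06 and Mir883a at 4.07, the lowest of the 35. Of the fixed marker genes, those for spermatids were named in the PABPC1 list in 6 of 6 cases. For meiotic spermatocytes it was 6 of 12 (without Sycp2, Ddx4, Spo11, Hormad1, Tex11 and Piwil1) and for Leydig cells 5 of 5. For Sertoli cells it was 4 of 6 (without Amh and Gata4) and for fibroblasts 5 of 7 (without Lum and Pdgfrb). In each CCT3 list the counts in that order were 0, 0, 1, 1 and 0. Of all 21900 protein-coding genes of RefSeq, the PABPC1 list names 4925 (22.5%), CCT3 2003 (9.15%) and CCT3-2 2625 (12.0%). The labels give the same spermatocyte line for all samples. The PABPC1 list names markers of meiotic spermatocytes, and also markers of spermatids and of Leydig, Sertoli and fibroblast cells. Whether the label holds for the PABPC1 sample was not tested. The part of such cells or RNAs in the PABPC1 footprints was not tested, and in bulk libraries fewer cells of a type and less RNA per cell cannot be told apart.

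**Figure D3:**
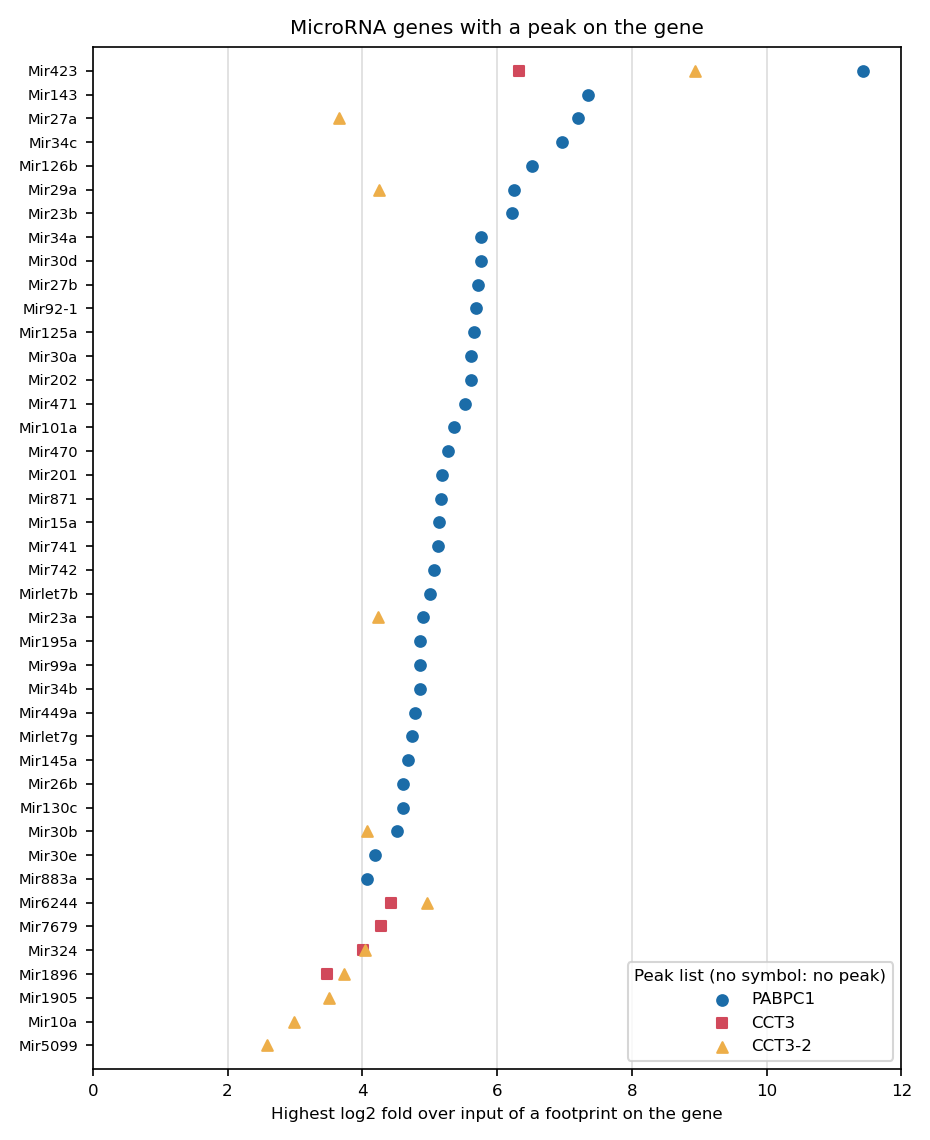
Highest log2 fold over input of a footprint on each microRNA gene, for PABPC1 (circles), CCT3 (squares) and CCT3-2 (triangles), with 1 sample per list and therefore no error bars. Mir423 is highest in all 3 lists, at 11.43, 6.32 and 8.94, and 30 PABPC1 genes have no symbol from either CCT3 list.

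Peaks in the CCT3 lists reached the same mature RNAs in few genes. On Mir423 the CCT3 peak, chr11:77078127-77078151, had a log2 fold of 6.32 (−log10 p 58.7) and lay inside the PABPC1 footprint, stopping 5 bases short of the 3′ end of miR-423-5p. The CCT3-2 pieces on Mir423 spanned exactly the PABPC1 footprint, with a log2 fold of 8.94 (−log10 p 266), the highest of all 2852 genes in that list, whereas in CCT3 Mir423 ranked 75 of 2210. CCT3-2 also had footprints on miR-29a-3p and miR-27a-3p with the same edges as PABPC1, at log2 folds of 4.25 and 3.65, and on miR-23a-3p at 4.23, 1 base wider at the 5′ edge and 2 at the 3′ edge. No peak of the CCT3 list lay on Mir29a, Mir27a or Mir23a, so those 3 footprints rest on the CCT3-2 list alone.

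By peaks on the gene, PABPC1 shared 1 gene with CCT3 (Mir423), which is 2.86% of its 35 and 20.0% of the 5, and 5 with CCT3-2, which is 14.3% of the 35 and 45.5% of the 11. The fifth, Mir30b, was shared in name only. Its CCT3-2 peak at chr15:68335027-68335154 lay on a listed transcript of 2716 bases and missed the hairpin span at chr15:68337415-68337510, where the PABPC1 peak lay. CCT3 and CCT3-2 shared Mir423, Mir324, Mir1896 and Mir6244. Sharing by peaks on the gene is not given here for all listed genes, so these shares have no background beside them.

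The other CCT3 peaks on microRNA genes were 35 to 73 bases wide and crossed the edge of the gene. They were Mir6244, in the RNase gene Zc3h12c, at log2 folds of 4.43 and 3.37, Mir7679, in Slfn9, at 4.27, Mir324, in the fatty acid oxidation gene Acadvl, at 4.01 and Mir1896 at 3.47. The CCT3-2 footprints on Mir6244 (4.96), Mir1896 (3.72) and Mir1905 (3.51) were on the strand opposite to the microRNA. Mir1905 lies within Mex3a, which encodes an RNA-binding ubiquitin ligase. Its footprint joins 3 pieces with log2 folds from 2.99 to 3.51, and the piece 49 bases outside the gene has the value 3.51. The CCT3-2 footprints on Mir324 (4.04), Mir10a (2.99) and Mir5099 (2.59) were on the strand of the microRNA. Mir10a lies within the span of Hoxb3, and both it and Mir5099 were below the lowest fold of the other lists.

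MicroRNA genes are often transcribed as clusters, and PABPC1 footprints covered some members of a cluster and not others. With neighbours at most 10 kb apart, the 35 genes fell into 25 RefSeq clusters, 7 of 1 gene and 18 of 2 or more. The 18 held 65 microRNA genes, and 35 of them had no PABPC1 peak at their position. Mir126a and Mir30f are counted as covered here, since the peak named for the gene they overlap also covers them. Both genes were covered in the pairs Mir34b and Mir34c, Mir30b and Mir30d, and Mir143 and Mir145a. By position this also held for the overlapping pair Mir126a and Mir126b, where 1 footprint lay on both. In the cluster of Mir92-1, 1 of 6 genes was covered and Mir17, Mir18, Mir19a, Mir20a and Mir19b-1 were not. The count was 2 of 4 in each cluster of miR-23 and miR-27, where both copies of Mir24 and of Mir3074 were not covered, and 1 of 3 around Mir449a, Mir195a and Mir125a.

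The largest was an X-linked cluster at chrX:66776757-66839125 with 19 microRNA genes, 6 of them covered, Mir742, Mir883a, Mir471, Mir741, Mir871 and Mir470. The 13 others were Mir743, Mir743b, Mir883b, Mir463, Mir880, Mir878, Mir881 and 6 genes of the Mir465 group. Mir201, further along the chromosome beside Mir547, was the seventh X-linked gene covered. No PABPC1 peak lay on the other 83 of the 90 RefSeq microRNA genes of the X chromosome.

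Several uncovered neighbours belong to microRNAs with more than 1 numbered copy in the genome. The name ended in a copy number for 14 of the 35 uncovered neighbours (40.0%), for 1 of the 35 covered genes (2.86%, Mir92-1) and for 143 of all 1180 RefSeq microRNA genes (12.1%). The 14 were both copies of Mir24 and Mir3074, 2 let-7c genes, 4 genes of the Mir465 group, Mir16-1, Mir19b-1, Mir29b-1 and Mir30c-1. Copies of 1 microRNA are counted separately here, so these names are not independent of each other. By sequence, 1 of the 28 mature RNAs under a PABPC1 footprint was found at more than 1 gene (3.57%). Over the whole reference table it was 54 of 1674 distinct mature sequences (3.23%). No source used here says how reads matching several places were handled, and the part of such reads in these counts was not tested.

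**Figure D4:**
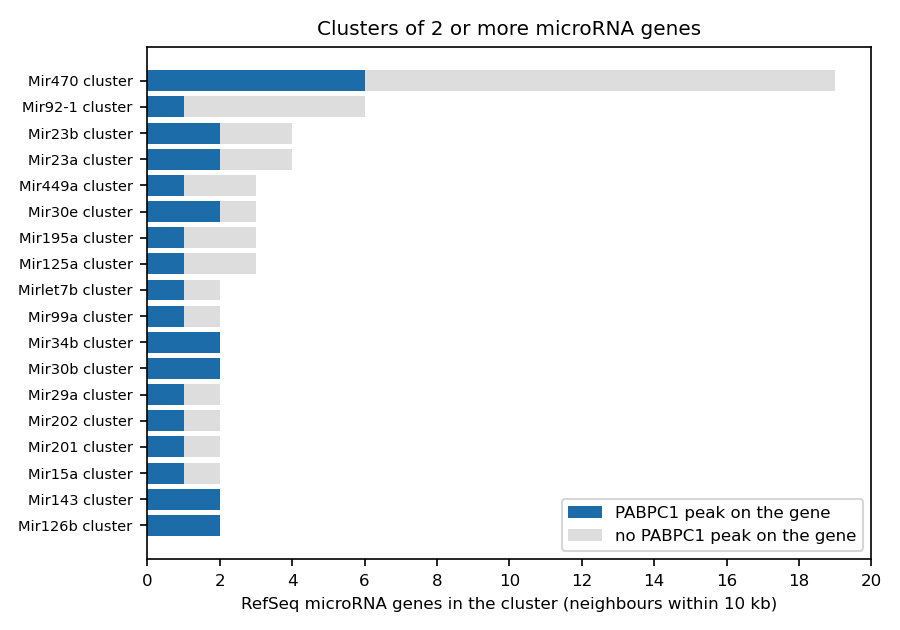
Number of RefSeq microRNA genes in each of the 18 clusters of 2 or more genes, split into genes with a PABPC1 peak on the gene by position (blue) and without (grey). The X-linked cluster of Mir470 is the largest, with 6 of 19 genes covered.

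Among all 179 genes, grouping by the number in the name gave 12 families with 2 or more members. Every member had a peak on the gene in some list for Mir30 (4 of 4), Mir34 (3 of 3), Mir23, Mir27 and let-7 (2 of 2 each). The count was 1 of 2 for Mir26, Mir29 and Mir101, and 0 of 2 for Mir103, Mir193, Mir378 and Mir3473. By position, 18 of the 179 lay in 8 clusters, the largest with 3 genes.

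Genes whose proteins make microRNAs or act with them were counted in the same lists by listed name. PABPC1 peaks reached 15 of 36 such genes, CCT3 peaks 9 and CCT3-2 peaks 10, and the PABPC1, CCT3 and CCT3-2 lists name 22.5%, 9.15% and 12.0% of the 21900 protein-coding genes of RefSeq. For the Microprocessor and its cofactors the counts were 5, 0 and 0 of 8, with the nuclease gene Drosha at a PABPC1 log2 fold of 4.57, the helicase gene Ddx17 at 5.89, Srsf3 at 6.24, Khsrp at 6.84 and Srrt at 4.40. Ran, which powers nuclear export of precursors, stood at 4.74 and Prkra, a Dicer partner, at 4.51, both in PABPC1, while Dicer1 was named in CCT3-2 alone, at 3.56. Of the 4 Argonaute genes Ago1 had PABPC1 peaks, up to 7.15, and no Argonaute gene had a CCT3 or CCT3-2 peak.

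For the silencing partners the counts were 3, 5 and 5 of 9. Tnrc6a, which bridges Argonaute to deadenylases, was named in all lists, with 6 PABPC1 peaks up to 6.88, 15 CCT3 peaks up to 5.09 and 26 CCT3-2 peaks up to 5.21. Its paralogs Tnrc6b, with 14 CCT3 peaks up to 6.63, and Tnrc6c, with 12 up to 4.90, had no PABPC1 peak. Ddx6, a helicase of translational repression, had 3 CCT3 peaks up to 4.52. Pan3, the adaptor of a deadenylase, stood at 4.00 in PABPC1 and 7.15 in CCT3, and the helicase gene Mov10 at 3.80 in PABPC1.

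For precursor and microRNA turnover the counts were 4 of 10 in each list. PABPC1 had peaks in Tut4, a uridylyltransferase gene, up to 7.38, in Trim71 at 5.48, in Lin28a, whose protein blocks let-7 processing, at 4.86 and in Zswim8 at 3.24. CCT3 had peaks in Tut4 at 3.55, in Tut7 up to 3.98, in Dis3l2 at 4.14 and in Adar up to 3.38. The 36 genes are a hand-chosen list, and these counts were not tested against other genes.

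Peaks listed under a microRNA without touching it lay almost always within the span of another gene. A RefSeq gene span held 99.6% of the 279 PABPC1 peaks beside a microRNA, 99.2% of the 263 in CCT3 and 99.5% of the 400 in CCT3-2. The same share over all peaks is not given here. The distal intergenic class held 0.135% of all PABPC1 peaks, 0.321% of all CCT3 peaks and 0.231% of all CCT3-2 peaks. Lying within a gene is thus not shown to be particular to peaks beside a microRNA. Their median distance to the microRNA was 3253 bases in PABPC1 (1 to 82066), 3833 in CCT3 (1 to 481278) and 5881 in CCT3-2 (10 to 482176). Within 1000 bases were 71, 38 and 51 of them, in that order. In PABPC1 67.7% were in 3′ UTRs (all peaks of the list 79.9%), and in CCT3 47.1% were in other exons (47.9%), 30.4% in 3′ UTRs (18.0%) and 22.4% in introns (29.6%). In CCT3-2 26.75% were in 3′ UTRs (16.5%). The 3′ UTR share beside microRNAs was thus below that of the whole list in PABPC1 and above it in CCT3 and CCT3-2. The promoter class held 23.3% in PABPC1 (all peaks 13.2%), 0% in CCT3 (0.925%) and 12.75% in CCT3-2 (16.2%). Since that class was used unevenly between the lists, the 3′ UTR shares do not set the proteins apart.

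**Figure D5:**
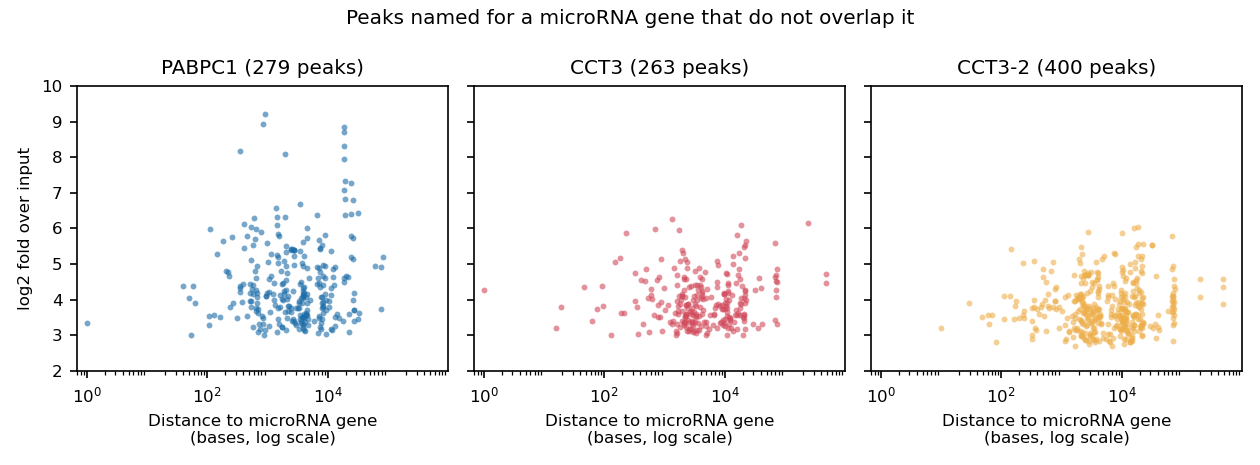
Log2 fold over input against the distance in bases (log scale) between a peak and the microRNA gene it is named for, 1 point per peak that does not overlap the gene, in the PABPC1, CCT3 and CCT3-2 lists. Most points lie beyond 1000 bases, with medians of 3253, 3833 and 5881 bases, and the PABPC1 column between 18973 and 19340 bases holds the 10 peaks in the Rnls 3′ UTR.

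Among genes with no peak on the microRNA itself, the highest PABPC1 folds lay within the spans of other RefSeq genes. They were Mir7652 at 9.20, with 4 peaks in the stress granule gene G3bp1, Mir3970 at 8.84, with 10 peaks in the 3′ UTR of Rnls at 18973 bases or more, Mir6376 at 8.17, in the oligosaccharyltransferase gene Rpn1, Mir7078 at 8.09, in Cmip, and Mir3108 at 7.26, in the 3′ UTR of the transcription factor gene Zfhx3. The most PABPC1 peaks, 11 up to 6.58, stood under Mir7-1 and lay in Hnrnpk, 622 to 1492 bases away. The closest were those of Mir7051 (1 base away, in Etfb, at 3.33), Mir9-3 (40 bases, in Mir9-3hg, at 4.38) and Mir8097 (50 bases, in Rnf19a, at 4.05).

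In the CCT3 list, again among genes with no peak on the microRNA, the highest folds were Mir6239 at 6.15, in introns of Gpc6, Mir26a-1 at 6.09, with 14 peaks in introns of Ctdspl, Mir671 at 5.87, in exons of Chpf2 and Mir1192 at 5.83, in the 3′ UTR of Klf9. Mir7679, which also had a peak on it, had 35 more CCT3 peaks in Slfn9, up to 6.25. The closest were those of Mir1905 (1 base, in Mex3a), Mir568 (16 bases) and Mir671 (47 bases). In CCT3-2 the highest were Mir26a-1 and Mir1192, both at 6.03, Mir7021 at 5.90, in Prdm2, and Mir6921 at 5.86, in Rai1. The closest there were Mir568 (10 bases), Mir671 (63 bases) and Mir7021 (197 bases).

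Of the 13 microRNA names listed for both PABPC1 and CCT3 (9.35% of 139 and 30.2% of 43), Mir423 alone had peaks of both on the gene. Mir99a had its PABPC1 footprint on the microRNA and a CCT3 peak 4117 bases away within the span of Mir99ahg. For Mir6244 the PABPC1 peaks lay in Rdx, at least 26898 bases away, and the CCT3 peaks in Zc3h12c, and for Mir6921 they lay in Srebf1 and in Rai1. The same other gene held the peaks of both proteins for Mir24-2 (Zswim4), Mir193b (Mrtfb), Mir3108 (Zfhx3), Mir5098 (Rest), Mir5623 (Atrnl1), Mir7021 (Prdm2), Mir8097 (Rnf19a) and Mir26a-1 (Ctdspl), and Mir568 is the remaining name. Peaks of both proteins overlapped in 1 of these genes, Ctdspl, and the deposited class of position differed in others. Rest had its 3 PABPC1 peaks in the 3′ UTR against 7 CCT3 peaks in other exons. Atrnl1 had its PABPC1 peak in the 3′ UTR against CCT3 peaks in introns.

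Of the 279 PABPC1 peaks beside a microRNA, 1 (0.358%) overlapped a CCT3 peak, the peak in a Ctdspl intron 31459 bases from Mir26a-1, at a PABPC1 log2 fold of 6.42. With CCT3-2, 7 (2.51%) overlapped, and 6 of these were the peaks listed under Mir7223 in exons of Prkca, which the CCT3 list does not name. CCT3 and CCT3-2 overlapped each other far more, in 221 of the 263 CCT3 peaks beside a microRNA (84.0%). Of the 43 microRNA names in CCT3, 42 were also in CCT3-2, which is 73.7% of its 57. The same overlaps over all peaks and genes of the lists are not given here. These shares are therefore not shown to be particular to microRNA names.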

How the data were processed

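Peaks from 3 eCLIP samples (1 PABPC1, 2 CCT3) were analysed. Per the submitters' processing notes, the build was mm10 and bcl2fastq 2.20 was used. Not given in the sources used here were the aligner, peak caller, annotation tool, duplicate treatment and use of molecular identifiers. The authors deposited a −log10 p and a log2 fold for every peak. Per the file headers, the CCT3 table names a log2 fold and a −log10 p. The other 2 tables have no names for these columns, which were identified by their order and ranges, and folds were used to describe or rank peaks within a list. The CCT3 table gives no strand.

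Peaks and gene spans were compared by position, with an overlap of at least 1 base, and peak pieces on 1 strand with at most 1 uncovered base between them were joined into footprints. Footprint edges were set against mature RNAs of the RefSeq table (GRCm38.p6). Of the 179 genes 150 had a hairpin there, as did 30 of the 35 with a PABPC1 peak on the gene. Host genes are RefSeq spans, strand not used. Shares have Wilson 95% intervals, computed with scipy 1.17.1 and pandas 2.3.3 in Python 3.11.15 (numpy 2.4.6), and figures used matplotlib 3.10.9. The joining of pieces and the distances of footprint edges from mature RNAs were checked on simulated footprints. No p-value was computed, since each list is 1 sample.

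The microRNA genes, gene lists and rule for named genes were chosen with earlier results of these data known. The rule names each gene with a peak on it, the 5 highest folds and 3 closest among genes with peaks beside them only, per list, and every gene listed for both proteins. A gene that the rule names in the CCT3 and CCT3-2 lists is not reported here. Names outside it, such as Mir7-1 and Mir7223, were chosen after their values were seen. Alternatives were a stricter peak threshold, other overlap rules, same-strand overlap (not run on CCT3), genes by position, other cluster gaps, families by seed, the CCT3-2 list in place of CCT3 and CCT3-2 peaks with both values of at least 3. The joining of pieces was varied after seeing the data.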

Additional observations from a re-analysis of the deposited data

How the results depend on the processing

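Of 46 alternative values for 16 results, 26 stayed within 1.5 times the main count and 20 did not. At a log2 fold of at least 4 and a −log10 p of at least 5, which removes peaks, the microRNA names fell to 90 genes and 174 peaks in PABPC1, 23 and 94 in CCT3 and 29 and 121 in CCT3-2, with 7 names shared by PABPC1 and CCT3. There CCT3-2 kept 6 peaks on 3 microRNA genes, while PABPC1 had 36 on 24. With genes taken by position on a microRNA span, the counts were 37 genes and 50 peaks in PABPC1, 5 and 6 in CCT3 and 10 and 17 in CCT3-2, with 1 gene shared, since peaks beside a microRNA are left out. The CCT3 count on the gene was 3 peaks on 3 genes with at least 50% of the peak inside, and 14 peaks on 8 genes with the span widened by 100 bases. The 24 PABPC1 footprints starting within 1 base of a mature RNA stayed 24 with touching pieces only and with peaks not joined, both chosen after seeing the data. No paired analysis was possible because each list is 1 sample and no test was run. Depth is unknown, so absence of a peak does not show absence of binding.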

Other observations

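The 50 PABPC1 peaks on microRNA genes carried 26 distinct −log10 p values. The value 7.10 was listed for Mir30a, Mir27b, Mir92-1 and Mir101a, and Mir30d and Mir34a had the same log2 fold of 5.76 and the same −log10 p of 8.30. Mir423, with its −log10 p at the ceiling of 400, was far from the rest, where the next highest value was 25.4 for Mir143.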
